A study of Mus musculus with 14 samples.

Results

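The receptor Ret, its co-receptors Gfra1, Gfra2 and Gfra3 and the ligand genes Gdnf, Nrtn and Artn were described in RNA sequencing of mouse dorsal root ganglia. These 7 genes were chosen by symbol, and all 7 had a row in both deposited count tables, which together list 53519 gene symbols. Each symbol occurred once per table, and in the table that carries Ensembl identifiers they were ENSMUSG00000030110 (Ret), ENSMUSG00000025089 (Gfra1), ENSMUSG00000022103 (Gfra2), ENSMUSG00000024366 (Gfra3), ENSMUSG00000022144 (Gdnf), ENSMUSG00000039481 (Nrtn) and ENSMUSG00000028539 (Artn). Levels are given as raw-count CPM, a gene's counts scaled to a fixed library total, with no further adjustment.

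GDNF family ligands act through a receptor of 2 parts. A GFRα protein, anchored to the outer face of the membrane by a lipid, binds the ligand and brings it to the tyrosine kinase RET, which then signals into the cell. GDNF binds chiefly GFRα1, neurturin GFRα2 and artemin GFRα3, with some crossover. In sensory ganglia RET marks many nonpeptidergic pain neurons and a set of touch neurons, GFRα3 marks many peptidergic pain neurons, and Schwann cells are a known source of GDNF and artemin after nerve injury.

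The libraries formed 4 groups, and their labels give the genotype but no age, sex or treatment. In the first table, 3 libraries came from ganglia of mice with floxed p75 (P75f/f) and 3 from mice labelled P75f/f-knockout, whose columns are headed P75-Adv, a term the labels leave unexplained. The second holds 4 wild-type and 4 5xFAD libraries, the latter from a mouse model of Alzheimer disease whose mutant human transgenes are driven in neurons by Thy1 regulatory sequence. The labels do not say which cells lost p75, nor whether replicates were separate animals, so p-values measure the spread between these libraries, which may be technical.

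Libraries of the p75 table held 4731119 to 6052690 counts, and those of the 5xFAD table held 13907070 to 19837836. The 2 tables were counted separately, so levels are tested within a table and only set side by side across tables. Ngfr, the p75 gene, lay at 27.5 ± 7.32 CPM (SD, n = 3) in the knockouts against 118 ± 26.0 CPM (SD, n = 3) in the floxed libraries, with no overlap (log2 fold change -2.02, SE 0.35; edgeR adjusted p = 0.9999). The labels name sensory neurons as the cell type, but the 12 Schwann cell markers summed to 2915 to 18693 CPM over all libraries and the 14 pan-neuronal markers to 271 to 1432 CPM, so RNA of other cells is present as well. Replicate 3 stood apart from replicates 1 and 2 in the p75 table. In the 5xFAD table replicates 1 and 2 stood apart from 3 and 4 in both genotypes, a split that the labels do not name, so values within each pair of replicates are given beside the pooled ones.

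Ret rose in 5xFAD ganglia, and it was the only member called higher by edgeR on all libraries without a term for the split. It stood at 24.8, 34.3, 22.9 and 24.8 CPM in wild-type replicates 1 to 4 and at 59.0, 60.6, 66.5 and 67.5 CPM in 5xFAD replicates 1 to 4. All 4 5xFAD libraries were above all 4 wild-type ones, and the groups varied little within themselves apart from the higher wild-type replicate 2. Mean Ret was 63.4 ± 4.23 CPM (SD, n = 4) in 5xFAD against 26.7 ± 5.14 CPM (SD, n = 4), a log2 fold change of 1.26 (SE 0.12), which is 2.40-fold (edgeR quasi-likelihood test, adjusted p = 0.000736). Within replicates 1 and 2 the log2 fold change was 1.02 (edgeR adjusted p = 8.34e-05), and within replicates 3 and 4 it was 1.49 (edgeR adjusted p = 2.38e-06). The difference between these 2 values was not tested. In bulk tissue, a change in the number of cells that express Ret and a change in Ret RNA per cell cannot be told apart.

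Ret was scarcer and scattered in the p75 table. Replicates 1 to 3 had 15.1, 8.49 and 3.47 CPM when floxed, and 1.46, 12.0 and 6.21 CPM when knocked out. The lowest of these rests on 7 counts, and the groups overlapped widely. The log2 fold change of -0.36 (SE 0.83) was within its error (edgeR adjusted p = 0.9999), and its sign turned to 0.21 without floxed replicate 1 and to 0.11 without knockout replicate 1.

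**Figure D1:**
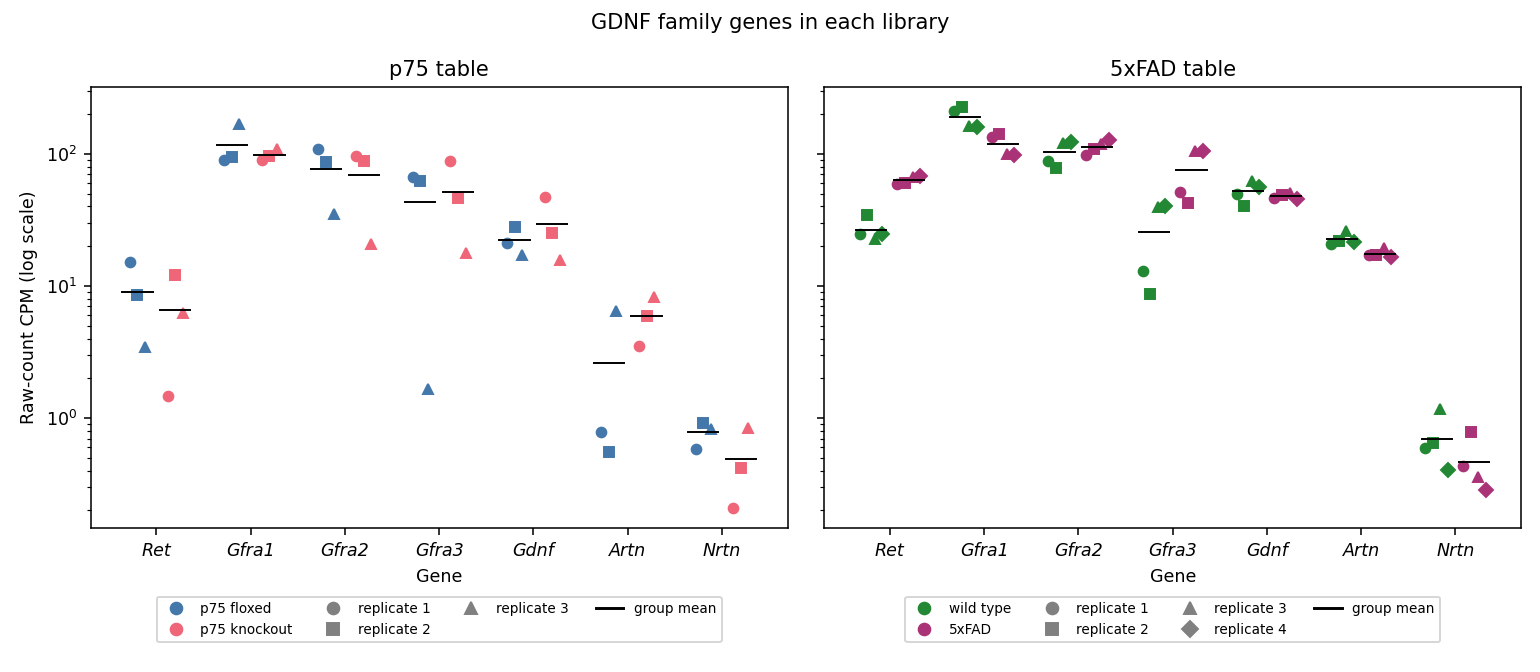
Raw-count CPM of the 7 genes in each library, on a log axis, with floxed and knockout libraries at the left and wild-type and 5xFAD libraries at the right. Points are libraries, their shapes replicate numbers, and bars group means. Ret lay between 59.0 and 67.5 CPM in 5xFAD and between 22.9 and 34.3 CPM in wild type, while Gfra3 spread from 1.65 to 66.8 CPM among floxed libraries.

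The 3 co-receptors differed from each other in 5xFAD. Gfra1, the co-receptor for GDNF, stood at 213, 225, 161 and 160 CPM in wild-type replicates 1 to 4 and at 134, 143, 99.3 and 97.3 CPM in 5xFAD replicates 1 to 4. Every 5xFAD library was below every wild-type one, and in both genotypes replicates 1 and 2 were above 3 and 4. The 5xFAD mean was 62.3% of the wild-type mean. The log2 fold change of -0.67 (SE 0.15) missed the threshold in the fit without the split (edgeR adjusted p = 0.0522). Gfra1 passed, at -0.77 (edgeR adjusted p = 0.0414), without 5xFAD replicate 2. Leaving out any other single library, it did not pass (edgeR adjusted p = 0.0574 to 0.155). DESeq2 (adjusted p = 0.000687) and limma-voom (adjusted p = 0.0397) called it on all libraries. Replicates 1 and 2 alone gave -0.66 (edgeR adjusted p = 4.64e-06) and replicates 3 and 4 alone -0.71 (edgeR adjusted p = 3.69e-05). With the split as a term it was -0.68 (SE 0.04; edgeR adjusted p = 1.66e-06).

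Gfra3, the co-receptor for artemin, lay higher in every 5xFAD library. Its levels were 13, 8.73, 39.8 and 40.1 CPM in wild-type replicates 1 to 4 and 51.3, 42.5, 105 and 106 CPM in 5xFAD replicates 1 to 4. The groups did not overlap, but the split was about as large as the genotype difference: replicates 3 and 4 held 3.68 times the level of replicates 1 and 2 in wild type and 2.25 times in 5xFAD. The pooled log2 fold change of 1.57 (SE 0.59) was not called (edgeR adjusted p = 0.247). Replicates 1 and 2 alone gave 2.09 (edgeR adjusted p = 1.36e-05), replicates 3 and 4 alone 1.40 (edgeR adjusted p = 7.72e-07), and the fit with the split as a term 1.70 (SE 0.18; edgeR adjusted p = 0.00187).

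The summed markers of Schwann cells and of satellite glia varied along with Gfra3 in this table. The 12 Schwann cell markers, none of them at 0, summed to 2915 to 3494 CPM in wild-type replicates 1 and 2. In wild-type replicates 3 and 4 they summed to 5266 to 5320 CPM. In 5xFAD they summed to 5001 to 5019 CPM in replicates 1 and 2 and to 6665 to 7071 CPM in replicates 3 and 4. Of the 12, 11 had a log2 fold change above 0 in 5xFAD, with a median of 0.72. In edgeR 0 of them were called higher and 1, Ngfr, lower, beside 2.56% and 1.04% of all genes. At an unadjusted p under 0.05, 6 were higher and 1 lower, where 16.2% of all genes passed in either direction. DESeq2 called 1 higher and 1 lower, beside 3.61% and 2.11% of all genes. With the split as a term, the fit in which Gfra3 passed, 8 of the 12 were called higher and 1 lower. In that fit 7.48% of all genes were called higher and 4.3% lower. The 9 satellite glia markers summed to 1745 to 1999 CPM in wild-type replicates 1 and 2 and 2521 to 2574 CPM in 3 and 4, and to 2546 to 2555 CPM and 2969 to 3123 CPM in 5xFAD. The sums of fibroblast and macrophage markers were also higher in replicates 3 and 4 than in 1 and 2 in both genotypes. Between genotypes other lists went differently. All 8 tested macrophage markers and all 6 endothelial markers had a log2 fold change below 0 in 5xFAD. Of 7 fibroblast markers 4 were below 0 and 3 above, and of 9 satellite glia markers 3 and 6. The part of these cells in the Gfra3 values was not tested.

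Gfra2, the co-receptor for neurturin, did not pass in 5xFAD. It ranged from 77.7 to 124 CPM in wild type and from 98.4 to 128 CPM in 5xFAD. These ranges overlapped, and replicates 3 and 4 were again above 1 and 2, by 1.48 times in wild type and 1.19 times in 5xFAD. The log2 fold change was 0.15 (SE 0.17; edgeR adjusted p = 0.728). In replicates 1 and 2 alone it was 0.32 and passed (edgeR adjusted p = 0.0174), and in replicates 3 and 4 alone it was 0.01 and did not (edgeR adjusted p = 0.965). The difference between these 2 values was not tested.

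Much of the spread of the co-receptors in the p75 table lay with replicate 3. In order of replicate, floxed Gfra3 was 66.8, 62.0 and 1.65 CPM, and knockout Gfra3 was 88.7, 46.5 and 17.8 CPM. Floxed Gfra2 was 108, 87.3 and 35.2 CPM, knockout Gfra2 was 96.9, 88.8 and 20.8 CPM, and both were lowest in replicate 3. Gfra1 was highest there instead, at 89.5, 93.9 and 167 CPM when floxed and 90.6, 95.5 and 109 CPM when knocked out. The Schwann cell markers summed to 7260 and 5009 CPM in floxed and knockout replicate 3, against 16768 to 18693 CPM in the other 4 libraries, with 1 marker at 0 in knockout replicate 3, and their part was not tested.

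Between genotypes the co-receptors overlapped throughout. The log2 fold changes were -0.21 (SE 0.37) for Gfra1, -0.10 (SE 0.61) for Gfra2 and 0.30 (SE 1.03) for Gfra3, each with an adjusted p of 0.9999 in edgeR. Without the replicate 3 libraries they were 0.10 for Gfra1, 0.00 for Gfra2 and 0.14 for Gfra3. The errors narrowed from 1.03 to 0.30 for Gfra3 in that fit, and none of the 3 passed.

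**Figure D2:**
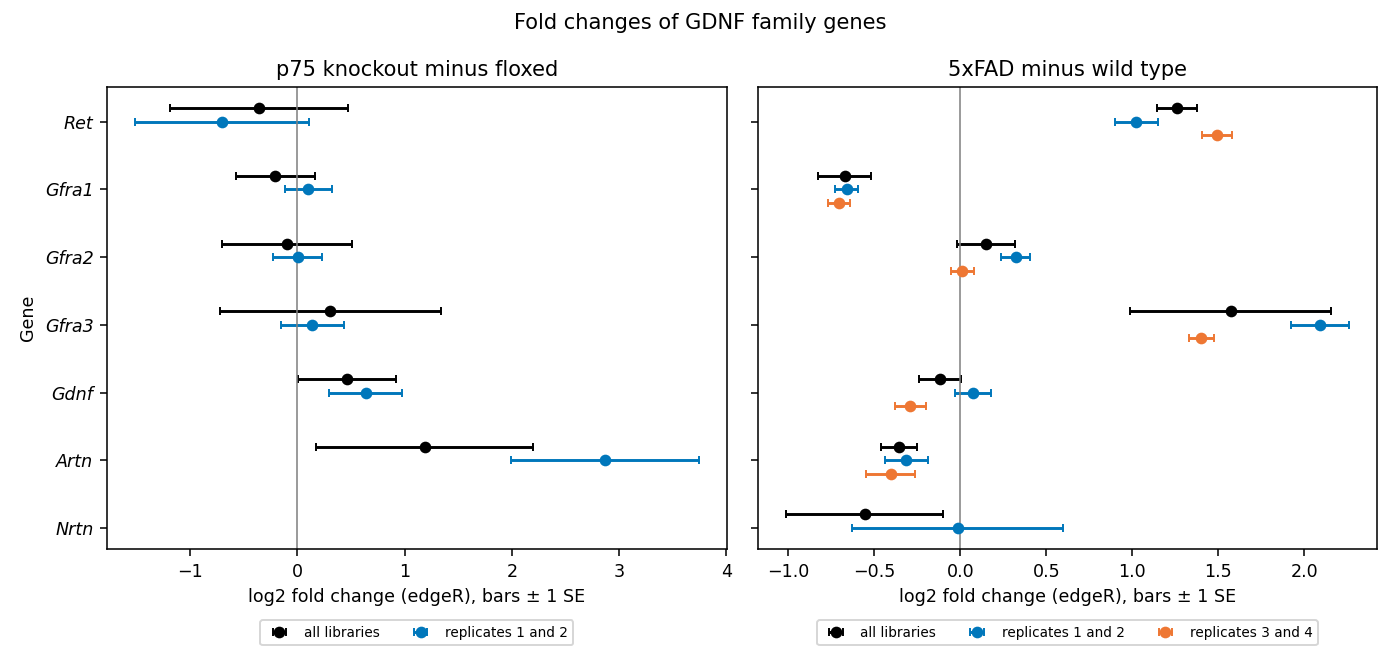
Log2 fold changes of the members from edgeR, with bars of 1 SE, for p75 knockout against floxed at the left and 5xFAD against wild type at the right. Colours show fits on all libraries and on pairs of replicates, and Nrtn was not tested in the p75 table or in replicates 3 and 4. Ret and Gfra3 lay right of 0 and Gfra1 left of 0 in all 3 fits of the 5xFAD table.

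In 5xFAD the ligand genes showed smaller differences than Ret, Gfra1 and Gfra3, and none passed the edgeR test on all libraries. Gdnf stood at 49.8, 40.2, 61.9 and 55.8 CPM in wild-type replicates 1 to 4 and at 46.5, 48.4, 50.4 and 45.7 CPM in 5xFAD replicates 1 to 4. The 5xFAD values lay inside the wild-type range, and the log2 fold change of -0.12 (SE 0.12) did not pass (edgeR adjusted p = 0.697). Its sign differed between the pairs of replicates, at 0.07 within 1 and 2 and -0.29 within 3 and 4, neither of which passed.

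Artn, which encodes artemin, stood at 20.7, 22, 26.1 and 21.5 CPM in wild-type replicates 1 to 4 and at 17.1, 17.2, 19.5 and 16.4 CPM in 5xFAD replicates 1 to 4. Each 5xFAD library was below each wild-type library, by a small margin between 5xFAD replicate 3 and wild-type replicate 1. The log2 fold change was -0.36 (SE 0.10), that is 77.8% of the wild-type mean, and was not called in the fit without the split (edgeR adjusted p = 0.111). Replicates 1 and 2 alone gave -0.31 (edgeR adjusted p = 0.118), replicates 3 and 4 alone -0.41 (edgeR adjusted p = 0.168) and the fit with the split as a term -0.35, which passed (edgeR adjusted p = 0.0235). DESeq2 also called it (adjusted p = 0.0447).

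Nrtn, which encodes neurturin, was near the limit of these libraries. It had 5 to 21 counts per library in the 5xFAD table, 0.403 to 1.16 CPM in wild type and 0.284 to 0.784 CPM in 5xFAD. Its log2 fold change of -0.56 (SE 0.46) was within the spread (edgeR adjusted p = 0.613). With 1 to 5 counts per library in the p75 table it was too scarce to be tested.

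The other ligand genes overlapped between floxed and knockout libraries. In order of replicate, Gdnf was 21.2, 28.0 and 17.2 CPM when floxed and 47.5, 25.4 and 15.8 CPM when knocked out, a log2 fold change of 0.46 (SE 0.46; edgeR adjusted p = 0.9999). Knockout replicate 1 was the high library, and without it the value was -0.02. Artn was 0.784, 0.553 and 6.44 CPM when floxed and 3.54, 5.92 and 8.22 CPM when knocked out. Floxed replicates 1 and 2 held only 4 and 3 counts, and floxed replicate 3 lay among the knockouts. The log2 fold change of Artn was 1.18 (SE 1.0; edgeR adjusted p = 0.9999) over all libraries, 3.21 without floxed replicate 3 and 2.86 in replicates 1 and 2 alone, and none of these passed.

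The promoter windows of Gfra1 and Artn, which both lay lower in every 5xFAD library, and of Gdnf, the ligand that GFRα1 binds, are shown to give the sequence around an annotated start of each gene. They run from 250 bases before to 50 bases after the start in RefSeq on GRCm38.p6, an older build than that of the counts, 5′ to 3′ on the gene's strand. Of the 7 members 4 matched this table: Gfra1, Gdnf, Nrtn and Artn. Capitals mark matches on either strand. The TATA box was searched as TATAAA and the GC box as GGGCGG. The core of the cAMP response element was searched as TGACGT and the E-box as CACGTG. No matches overlapped. Gdnf has a second window in the table, at chr15:7813477-7813776, which is not printed and held none of the 4 motifs.
Gfra1, chr19:58455349-58455648, minus strand: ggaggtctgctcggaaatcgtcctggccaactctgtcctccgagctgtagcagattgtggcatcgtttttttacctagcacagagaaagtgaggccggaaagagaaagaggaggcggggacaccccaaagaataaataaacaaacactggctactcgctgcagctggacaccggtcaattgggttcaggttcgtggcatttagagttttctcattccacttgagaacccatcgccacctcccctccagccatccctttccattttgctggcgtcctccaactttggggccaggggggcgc
Artn, chr4:117929714-117930013, minus strand: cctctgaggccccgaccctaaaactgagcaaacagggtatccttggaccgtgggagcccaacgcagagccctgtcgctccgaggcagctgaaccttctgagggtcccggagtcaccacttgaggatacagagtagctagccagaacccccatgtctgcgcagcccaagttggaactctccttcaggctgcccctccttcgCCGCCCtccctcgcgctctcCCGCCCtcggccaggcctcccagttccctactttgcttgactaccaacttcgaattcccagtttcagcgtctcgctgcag
Gdnf, chr15:7809798-7810097, plus strand: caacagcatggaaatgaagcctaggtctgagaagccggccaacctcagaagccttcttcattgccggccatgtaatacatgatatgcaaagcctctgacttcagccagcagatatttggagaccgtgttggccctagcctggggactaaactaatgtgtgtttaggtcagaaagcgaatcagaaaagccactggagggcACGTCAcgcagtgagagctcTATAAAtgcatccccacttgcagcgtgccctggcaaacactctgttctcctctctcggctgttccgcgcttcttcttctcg

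The Gfra1 window held none of the 4 motifs. The Artn window held 2 GC boxes on the other strand, with first bases at positions -50 and -30 from the start, a motif found in 35.7% of all 32851 windows. The Gdnf window shown held a TATA box at position -31, found in 13.6% of windows, and a cAMP response element core on the other strand at position -51, found in 7.51% of windows. E-boxes were found in 7.15% of windows. The GC content was 54.0% for Gfra1, 61.3% for Artn and 51.7% for Gdnf, against a median of 52.7% over all windows. A match describes the letters of the window and does not show that a factor binds there.

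All 7 members were tested in the 5xFAD table, and edgeR called 1 higher, Ret, and 0 lower. Over all 15845 genes tested it called 3.6%, of which 2.56% higher and 1.04% lower. At an unadjusted p under 0.05, 2 members were higher and 2 lower, against 16.2% of all genes. DESeq2 called 1 higher and 2 lower, with 3.61% and 2.11% of all genes, and limma-voom 1 of each, with 2.54% and 1.06%. Replicates 1 and 2 alone gave 3 higher and 1 lower, with 6.38% and 6.45% of all genes, and replicates 3 and 4 alone 2 and 1, with 3.51% and 1.29%. With the split as a term, 2 were called higher, Ret and Gfra3, and 2 lower, Gfra1 and Artn, where 7.48% and 4.3% of all genes were called. The groups did not overlap in CPM for the same 4 members, against 6.44% of all genes higher and 4.59% lower. The median log2 fold change of the members was -0.12, and that of all genes 0.00193.

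For the p75 table, 6 of the 7 members were tested and edgeR called 0 of them, as it called 0% of 11890 genes. The count was also 0 at an unadjusted p under 0.05, where 1.18% of all genes passed, and in limma-voom. DESeq2 called 0 members and 0.0214% of all genes lower. No member was called with the replicate number as a block or with a term for replicate 3, where 0.00841% of all genes were lower in each fit, or in replicates 1 and 2 alone, where 0.0499% were. The floxed and knockout libraries overlapped in all 7 members, while 2.18% of all genes were higher and 3.92% lower without overlap. The common dispersion, a measure of the spread between libraries, was 0.3 here and 0.023 in the 5xFAD table.

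Levels of different genes were compared per kilobase of exon. In wild type, Gfra1 had the highest mean, 34.7 ± 6.21 CPM per kb (SD, n = 4), followed by Gfra2 with 29.0 ± 6.58, and the libraries of these 2 overlapped. Their order turned with the split: Gfra1 was above Gfra2 in replicates 1 and 2, and Gfra2 was above Gfra1 in replicates 3 and 4. Gdnf came next with 14.1 ± 2.51 CPM per kb, below every Gfra2 library, then Gfra3 with 12.7 ± 8.45 and Artn with 9.39 ± 1.0, which overlapped their neighbours. Ret, with 3.95 ± 0.761 CPM per kb, and Nrtn, with 0.685 ± 0.318, had the lowest means and stood apart from their neighbours in this order. In wild-type replicate 2, however, Ret, at 5.07 CPM per kb, was above Gfra3, at 4.37.

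In 5xFAD the order of the mean levels was different. Gfra3 had the highest mean, 38.1 ± 17.0 CPM per kb (SD, n = 4), and overlapped Gfra2 at 32.1 ± 3.59. Gfra3 was the highest in replicates 3 and 4, at 52.5 and 53.0 CPM per kb, while Gfra2 was the highest in replicates 1 and 2, where Gfra3 had 25.7 and 21.3 CPM per kb. Gfra1 followed at 21.6 ± 4.27, below every Gfra2 library, then Gdnf at 13 ± 0.575. Ret, at 9.38 ± 0.626 CPM per kb, now lay above Artn at 7.30 ± 0.551, with no overlap. Nrtn was again the lowest, at 0.455 ± 0.216.

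The mean levels of the 3 co-receptors in the p75 table were 21.3 to 21.8 CPM per kb in floxed and 17.9 to 25.5 CPM per kb in knockout libraries, with overlap between neighbours, but these means pool unlike libraries. Gfra3, Gfra2 and Gfra1 had 33.5, 30.6 and 16.3 CPM per kb in floxed replicate 1 and 0.827, 9.94 and 30.5 CPM per kb in floxed replicate 3. The mean of Gdnf was below theirs, at 6.02 ± 1.50 CPM per kb (SD, n = 3) in floxed and 8.04 ± 4.43 in knockout libraries. In floxed replicate 3, however, Gdnf had 4.68 CPM per kb and was above Gfra3. Its range also overlapped those of Gfra2 and Gfra3 in the knockouts. Ret, Artn and Nrtn had the lowest 3 means in both groups. Ret reached 1.33 ± 0.861 CPM per kb in floxed and 0.972 ± 0.784 in knockout libraries, and Artn 1.08 ± 1.39 and 2.45 ± 0.972.

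The makeup of the co-receptors was then taken as each gene's share of the CPM per kb summed over Gfra1, Gfra2 and Gfra3, which does not depend on library scaling. In wild type Gfra3 held 9.25%, 6.49%, 23.8% and 23.8% of this sum in replicates 1 to 4, and in 5xFAD 32.9%, 27.2%, 50.4% and 49.6%. The share was higher in each 5xFAD library than in each wild-type one. Gfra1 held 55.3%, 60.9%, 35.2% and 34.7% in wild type and 31.4%, 33.3%, 17.4% and 16.6% in 5xFAD, so it was lower in each 5xFAD library. Gfra2 kept 32.1% to 41.5% over the 8 libraries, with overlap between genotypes. The makeup in the p75 table followed the replicate number. Gfra3 held 35.4% to 50.3% in replicates 1 and 2 of both groups, but 2.0% in floxed and 25.7% in knockout replicate 3, where Gfra1 held 73.9% and 57.3%.

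**Figure D3:**
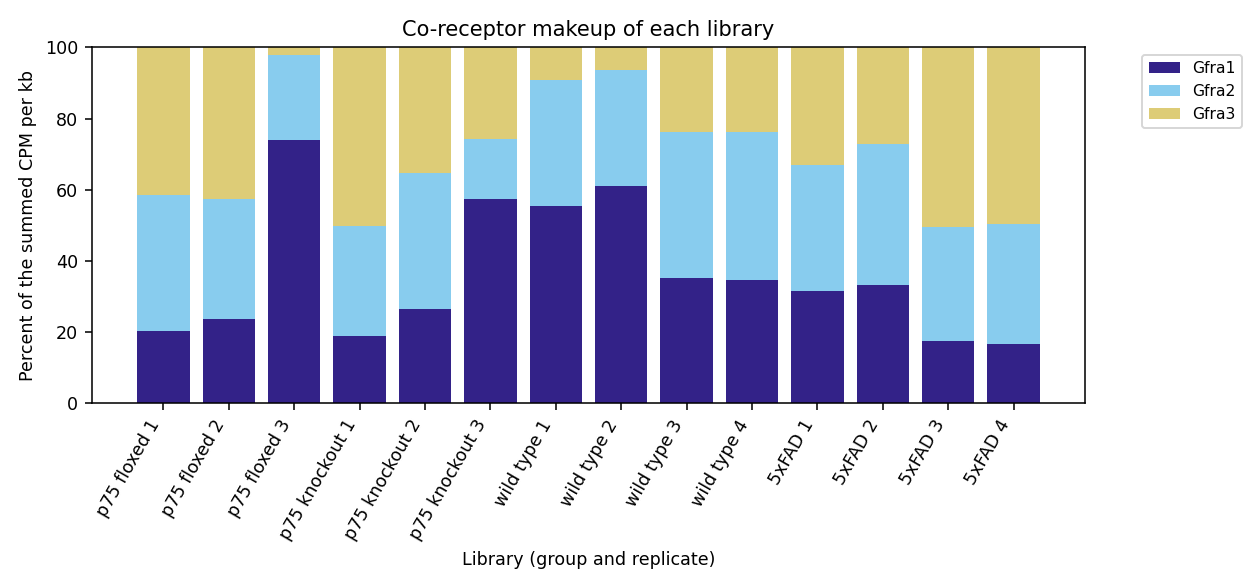
Shares of Gfra1, Gfra2 and Gfra3 in their summed CPM per kb of exon, 1 bar per library. The Gfra3 share was 6.49% to 23.8% in wild-type and 27.2% to 50.4% in 5xFAD libraries, and floxed replicate 3 held 2.0%.

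The members were also set against neuronal RNA, as the log2(CPM + 0.5) of the gene minus the mean log2(CPM + 0.5) of the 14 pan-neuronal genes. Those 14 genes, among them Tubb3 and Syt1, had a median log2 fold change of 1.35 in 5xFAD. In edgeR 11 were called higher and 0 lower, beside 2.56% and 1.04% of all genes. Ret changed by about as much as the mean of the 14 genes, whose own log2 fold changes ran from 0.35 (Uchl1) to 1.72 (Rbfox3). The value of Ret against the neuronal mean was 0.58 to 0.78 in wild type and 0.68 to 0.84 in 5xFAD. These ranges overlap, and the group means differed by 0.06. The share of all genes that lie as near this mean was not counted.

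The other members differed more between genotypes on this scale, on which the neuronal mean itself was 1.19 higher in 5xFAD, so that a gene with an even level lies lower by about that much. Gfra1 had 3.32 to 3.82 in wild type and 1.20 to 2.07 in 5xFAD, and Gfra2 had 1.79 to 3.08 and 1.44 to 1.68. Gdnf had 0.85 to 2.0 in wild type and 0.12 to 0.52 in 5xFAD. Artn had -0.01 to 0.77 in wild type and -1.33 to -0.95 in 5xFAD, and the scarce Nrtn -4.31 to -3.23 and -5.76 to -4.73. For these 5 genes every 5xFAD library was below every wild-type one, as it was for 87.2% of all 15845 genes tested, so this count says nothing particular about the members. Gfra3 overlapped between genotypes, at -1.29 to 1.46 in wild type and 0.33 to 1.40 in 5xFAD. These values are a description with no test.

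The p75 library with the least Ret, knockout replicate 1, also had the lowest pan-neuronal mean, 2.97 on the log2 scale against 4.25 to 5.32 in the other 5 libraries. Against that mean, Ret ranged from -2.27 to -1.35 in floxed and from -2.0 to -1.51 in knockout libraries. Whether the neuronal level accounts for the Ret values was not tested.

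**Figure D4:**
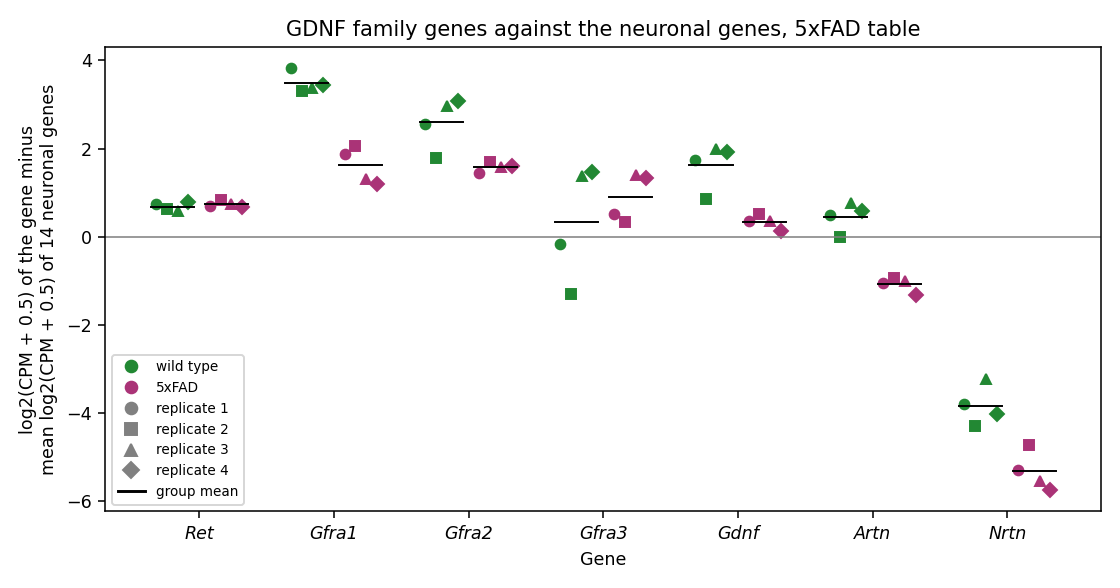
Members against the pan-neuronal genes in the 5xFAD table, as the difference between the log2(CPM + 0.5) of the gene and the mean over 14 neuronal genes. Points are libraries and bars group means. Ret stayed between 0.58 and 0.84 in all 8 libraries, while Gfra1, Gfra2, Gdnf and Artn were lower in every 5xFAD library than in every wild-type one, as were 87.2% of all genes tested.

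Markers of the neurons that carry these receptors were mixed in 5xFAD. Of 22 genes of nonpeptidergic and other Ret-positive neurons 13 were tested, with a median log2 fold change of 0.51. In edgeR 3 were called higher and 2 lower, beside 2.56% and 1.04% of all genes. P2rx3, the ATP-gated channel of nonpeptidergic pain neurons, rose by 1.28 (SE 0.24; edgeR adjusted p = 0.0314), beside 1.26 for Ret, and its call ended without any single library except wild-type replicate 2 and 5xFAD replicate 3 (edgeR adjusted p up to 0.0937). Tmem233 rose by 1.29 (SE 0.21) and Gna14, a G protein subunit, by 1.07 (SE 0.18). Slc17a8, the vesicular glutamate transporter of C-fibre touch neurons, fell by 1.64 (SE 0.21) and Maf, a transcription factor of Ret-positive touch neurons, by 0.60 (SE 0.06; edgeR adjusted p = 0.00114). Mrgprd, the defining receptor of the largest nonpeptidergic class, was too scarce to test, at 0.130 ± 0.115 CPM (SD, n = 4) in wild type and 0.0322 ± 0.0377 CPM (SD, n = 4) in 5xFAD. Mrgprb4 and Mrgprb5 were at 0 in all 8 libraries.

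Of 10 genes of peptidergic and cold-sensing neurons 8 were tested, with a median log2 fold change of 1.40. In edgeR 3 were called higher and 0 lower, beside 2.56% and 1.04% of all genes. DESeq2 called 5 higher and 1 lower, beside 3.61% and 2.11% of all genes. The fit with the split as a term called 4 and 1, beside 7.48% and 4.3%. The only 2 tested genes below 0 in the edgeR fit were Kit, a receptor tyrosine kinase, at -0.36 (SE 0.09; edgeR adjusted p = 0.0750), and Foxp2 at -0.76 (SE 0.61; edgeR adjusted p = 0.611), named after their values were seen. The 3 called were the heat and capsaicin channel gene Trpv1, at 1.75 (SE 0.32), the CGRP gene Calca, at 1.52 (SE 0.28), and the galanin gene Gal, at 2.29 (SE 0.50), which was scarce, with a mean of 0.652 CPM in wild type. Calca lost its call without wild-type replicate 1, 3 or 4 or 5xFAD replicate 4, Gal without any single library except wild-type replicate 3 and 5xFAD replicate 1, and Trpv1 without wild-type replicate 1. Calca did not pass in replicates 1 and 2 alone, at 1.12 (edgeR adjusted p = 0.232), nor Gal in replicates 3 and 4 alone, at 2.10 (edgeR adjusted p = 0.175). Between floxed and knockout, edgeR called 0 of the 6 tested genes of this list and 0 of the 9 of the nonpeptidergic list. DESeq2 called 1 of the 6 lower, beside 0.0214% of all genes. Calca stood at -3.52 (SE 0.83) there, Tac1, the substance P precursor, at -3.82 (SE 1.17), Tmem233 at -3.15 (SE 1.77) and Gna14 at -1.62 (SE 1.30). Calca passed in the fit blocked on replicate number, at -3.39 (edgeR adjusted p = 0.0116).

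Of genes downstream of Ret, edgeR called 0 of 19 adaptors and 1 of 13 induced genes in 5xFAD, while it called 3.6% of all genes. Of 20 adaptors and relays that carry signals from the receptor 19 were tested, with a median log2 fold change of 0.01. At an unadjusted p under 0.05, 2 were higher and 3 lower, where 16.2% of all genes passed in either direction. DESeq2 called 0 higher and 2 lower, beside 3.61% and 2.11% of all genes. With the split as a term, 3 adaptors were called higher and 2 lower, where 7.48% and 4.3% of all genes were. The smallest p belonged to Shc1, an adaptor that docks on RET, at -0.32 (SE 0.09; edgeR adjusted p = 0.102), and Irs2, an insulin receptor substrate, at 0.26 (SE 0.07; edgeR adjusted p = 0.102). Of 14 genes known from other tissues to be induced by GDNF or RET signalling 13 were tested. All 13 had a log2 fold change below 0, with a median of -0.15, beside 0.00193 over all genes. In edgeR 1 was called, Etv4, an ETS transcription factor downstream of RET in the mouse kidney. At an unadjusted p under 0.05, 0 of the 13 were higher and 3 lower, and DESeq2 called 0 higher and 1 lower. With the split as a term, 0 of the 13 were called higher and 2 lower.

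Etv4 stood at 9.87 ± 1.88 CPM (SD, n = 4) in wild type and 4.99 ± 0.733 CPM (SD, n = 4) in 5xFAD. Its log2 fold change was -0.97 (SE 0.17; edgeR adjusted p = 0.0115). Replicates 1 and 2 alone gave -1.29 for Etv4, and replicates 3 and 4 alone -0.66, which did not pass. Leaving out wild-type replicate 1 also ended the call. Between floxed and knockout, edgeR called 0 of the 16 adaptors and 0 of the 10 induced genes tested. At an unadjusted p under 0.05, 0 adaptors and 1 induced gene passed, beside 1.18% of all genes, and DESeq2 called 0 of both. The smallest p there belonged to Grb2, an adaptor of receptor tyrosine kinases, at 0.74 (SE 0.42), the kinase gene Src at 1.41 (SE 0.87), the transcription factor gene Etv1 at -1.30 (SE 0.52) and the phosphatase gene Dusp4 at 0.90 (SE 0.63).

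Genes whose profile over the 8 libraries of the 5xFAD table was most like that of a receptor were found by the root mean square difference of log2(CPM + 0.5), each centred on its own mean, among 13155 genes. For Ret they were Reep1, which shapes the endoplasmic reticulum of axons, Mast1, a microtubule-associated kinase, and Cadps, a priming factor of dense-core vesicles, with differences of 0.075, 0.080 and 0.080 against a median of 0.66. For Gfra1 they were Padi2, a peptidylarginine deiminase, Trabd2b, a metalloprotease, and the oxidoreductase gene Nqo1. Their differences were 0.094 to 0.12 against a median of 0.43. For Gfra2 they were Stard8, Plxnb1 and Synpo, with differences from 0.060 to 0.064 against a median of 0.30. For Gfra3 they included Slc15a2, a peptide transporter, and Olfml1, at 0.23 and 0.28 against a median of 1.2. These lists include the split as well as the genotype, since both shape the profiles.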

How the data were processed

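Both tables hold counts, whole numbers per gene used as deposited. The build was GRCm39, per the submitters' processing notes. Aligner, counter and strand setting were not given in the sources used here. Gfra1 shares 7.6% of its exon bases with the antisense gene Gm16277, which had 0 to 2 counts per library.

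Knockout columns headed P75-Adv were matched to knockout samples by number and elimination. Among repeated symbols the row with the most counts kept the symbol. Each table was fitted in R 4.3.3 with edgeR 4.0.16 (filterByExpr, TMM, robust glmQLFit, glmQLFTest, no covariates; Benjamini-Hochberg threshold of 0.05), which left 11890 and 15845 genes. SE was derived from the fold change and its F statistic. Raw-count CPM were computed from library totals, and exon lengths are unions of GENCODE M21 exons, an older build.

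Members, lists and alternatives were chosen with earlier results of these data known. Named genes were the members; per list, up to 6 called genes (4 for other cell types), or the 2 with the smallest p; and the 3 genes most like each receptor, of which 1 is not reported here. Alternatives were DESeq2 1.42.0 (scaling and test), limma-voom (limma 3.58.1), raw totals, filters, the replicate block, the splits and leaving out each library; a term for replicate 3 of the p75 table was added after seeing the data. Libraries of equal number in the p75 table deviated together (correlations of 0.344, 0.31 and 0.581), each over 0.1, so the block was treated as a pairing, from the data and not the design; replicates 1 and 2 also correlated across numbers (0.375 and 0.445), so only replicate 3 is told apart. Data were simulated with 200 changed genes of at least 5 CPM, the common dispersion of each table for every gene and no split of replicates. There the 5xFAD fit (15892 genes) found 99% of 2-fold and 100% of 4-fold changes, and the p75 fit (12056 genes) 1% and 10%. Genes that spread more, as Gfra3 did with the split, were not simulated. No 2 libraries were copies: at least 24.9% of genes differed beyond counting noise.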

Additional observations from a re-analysis of the deposited data

Results flagged for a closer look

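In 2 of 58 groups of 4 libraries, 1 library stood apart from the other 3 by more than chance gives in about 1 in 20 groups. As a share of the groups this was no more than that rate. Tubb3, the neuronal tubulin gene used in the pan-neuronal mean, had 226 CPM in wild-type replicate 1, where the rest of its group had 263 to 266 CPM. Cntnap2, a gene of large myelinated neurons, had 5.02 CPM in 5xFAD replicate 2, against 6.70 to 7.05 CPM in the other 5xFAD libraries. None of the 7 members was among them.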

How the results depend on the processing

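In the 5xFAD table the members kept their direction under each alternative that gave a value except Gdnf, which was 0.072 in replicates 1 and 2 alone; Nrtn gave none with a mean of at least 5 CPM or in replicates 3 and 4 alone. The count of members called higher, 1 by edgeR, was 2 with the replicate block, 3 in replicates 1 and 2, 2 in replicates 3 and 4, 2 with the split as a term and 1 to 1 without single libraries. The count called lower, 0 by edgeR, was 2 with DESeq2, 1 with limma-voom, 2 with the replicate block, 1 in replicates 1 and 2, 1 in replicates 3 and 4, 2 with the split as a term and 0 to 1 without single libraries. Over all genes, edgeR called 406 higher and 164 lower. The counts were 626 and 365 with DESeq2, 1051 and 571 with the replicate block, 1185 and 681 with the split as a term, 1021 and 1032 in replicates 1 and 2, and 192 to 340 and 45 to 178 without single libraries, fewest without wild-type replicate 1. The higher count fell by more than 1.5 times without wild-type replicate 1 (192) or 5xFAD replicate 1 (250) or 4 (217), and the lower count without wild-type replicate 1 (45) or 2 (96) or 5xFAD replicate 1 (73), 2 (96) or 4 (66). Replicate numbers do not pair the 5xFAD table: deviations of equal numbers correlated by 0.118, 0.288, 0.389 and 0.0676, and not every library correlated best with its own number. The block ended the 5xFAD call of Calca, at 1.51 (edgeR adjusted p = 0.0783). In the p75 table edgeR called 0 genes lower, DESeq2 4, the replicate block 1, a term for replicate 3 1 and replicates 1 and 2 alone 6; the block changed no call among the members. Directions turned there without the replicate 3 libraries for Gfra1 (0.10), Gfra2 (0.0020), Sdc3 (0.23) and Src (-0.12), and with raw totals for Ncam1 (-0.0020). Without single libraries the log2 fold changes ran from -1.13 to 0.21 for Ret, -0.39 to 0.20 for Gfra1, -0.42 to 0.33 for Gfra2, -0.32 to 0.75 for Gfra3, -0.024 to 0.76 for Gdnf, -0.28 to 0.091 for Sdc3, -0.069 to 0.15 for Ncam1 and -0.25 to 1.90 for Src. The cause was not tested. Counts were few for Nrtn in both tables, and in some libraries of the p75 table for Artn (down to 3) and Ret (down to 7). The part of depth in their spread was not tested.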

Other observations

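Gfra4, Pspn and Gfral, other genes of the family, lay low in the 5xFAD table. Gfra4, the co-receptor for persephin, stood at 2.34 ± 0.428 CPM (SD, n = 4) in wild type and 3.13 ± 0.947 CPM (SD, n = 4) in 5xFAD, a log2 fold change of 0.41 (SE 0.27; edgeR adjusted p = 0.507). Gfra4 was not tested in the p75 table, where it had 0 to 48 counts per floxed library and 1 to 5 per knockout library. Pspn, the persephin gene, had 1 to 9 counts per library in the 5xFAD table. Gfral, the receptor for GDF15 in the hindbrain, had 0 counts in all 8 libraries of that table, which allows up to 0.151 to 0.216 CPM per library (3 counts, counting error only).

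Ncam1, which can serve GDNF as a receptor without RET, had a log2 fold change of 0.65 (SE 0.27; edgeR adjusted p = 0.283) in 5xFAD and passed within replicates 1 and 2, at 0.76, and within replicates 3 and 4, at 0.57. Sorl1, a sorting receptor that binds GDNF, had 0.61 (SE 0.20; edgeR adjusted p = 0.158). Between floxed and knockout, Ncam1 stood at 0.06 (SE 0.33) and the heparan sulphate proteoglycan gene Sdc3 at -0.12 (SE 0.37). Of 12 other neurotrophic receptor genes, edgeR called 1 higher and 1 lower in 5xFAD, beside 2.56% and 1.04% of all genes. They were Lifr, the receptor for leukaemia inhibitory factor, at 0.96 (SE 0.07), and Ngfr, at -0.70 (SE 0.08). DESeq2 called 3 higher and 2 lower, beside 3.61% and 2.11% of all genes. With the split as a term, 5 were called higher and 2 lower, beside 7.48% and 4.3%.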
